A study of Mus musculus with 8 samples.

Results

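Necroptosis and the caspase-8 checkpoint that restrains it were followed through 6 genes: Zbp1, Ripk1, Ripk3, Mlkl, Casp8 and Cflar. They were taken by name out of 30284 mouse genes for which transcript abundances were summed, and all 6 passed the filter on low values that left 13009 genes for testing. The RNA came from macrophages of 7-week-old male C57BL6 mice that had been stimulated in the peritoneal cavity. There were 4 groups of 2 libraries. Saline was given for 4 h as the control, LPS, a bacterial glycolipid detected through TLR4, for 4 h, IFNb, a type I interferon, also for 4 h, and in the group LPS+IFNb the interferon acted for 4 h before LPS was added for a further 4 h. The mice carried no engineered allele that the labels name, no group received IFNb and then saline, and collection of LPS+IFNb came 8 h after the first stimulus. A difference between LPS+IFNb and another group therefore holds both the added agent and the longer time, which cannot be told apart. The labels do not say how the macrophages were isolated or whether each library stands for its own animal. P-values therefore rest on how far the 2 libraries within each group differed, a spread that may be technical. That spread was pooled over the 4 groups and drawn towards the spread of other genes.

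Necroptosis is a lytic form of programmed death. ZBP1, a sensor of Z-form nucleic acids, or RIPK1, a kinase of the death receptor complexes, engages the kinase RIPK3, which phosphorylates MLKL, and MLKL then permeabilises the plasma membrane. Caspase-8 cleaves RIPK1 and RIPK3 and starts apoptosis, and its catalytically inactive relative cFLIP, made from Cflar, pairs with it and tunes both outcomes. In macrophages these proteins act downstream of TNF receptors, of TLR3 and TLR4, and of interferon.

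The regions just upstream of the annotated starts are shown because the 6 genes fell into different response patterns below. A RefSeq promoter table on GRCm38.p6 (mm10) held 5 of the 6 genes, with 6 starts, and had no entry for Zbp1. The 250 bases upstream of each start were searched on both strands for GAAANNGAAA, the core of the interferon-stimulated response element, for TTCNNNGAA, the gamma-activated site (GAS), and for the NF-kappaB consensus. The Ripk1 start at chr13:34002874 was the one with matches, both to TTCNNNGAA, at -108 to -100 and at -11 to -3 counted from the start (TTCCCGGAA in each). Of 32851 promoters of the same length in the table, 2.98% held the first motif, 7.02% the second and 3.90% the third; no match overlapped another motif. A match is only a match of letters. No stretch is printed for Ripk3, because the bases just upstream of its RefSeq start lie in an annotated exon of Ripk3-201. The stretches below lie outside annotated exons, read 5′ to 3′ on the strand of the gene, and carry the downstream GAS match in capitals.
Ripk1, upstream of the start at 34002363, chr13:34002243-34002362, plus strand: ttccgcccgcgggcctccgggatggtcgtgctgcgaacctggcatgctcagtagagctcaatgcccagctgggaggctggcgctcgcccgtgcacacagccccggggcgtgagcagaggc
Ripk1, upstream of the start at 34002874, chr13:34002795-34002873, plus strand: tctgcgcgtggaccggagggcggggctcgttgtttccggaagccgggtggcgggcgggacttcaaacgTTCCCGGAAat
Mlkl, chr8:111338206-111338325, minus strand: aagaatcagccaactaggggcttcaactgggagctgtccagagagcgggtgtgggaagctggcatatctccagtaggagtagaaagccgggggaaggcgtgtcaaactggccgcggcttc
Casp8, chr1:58802382-58802501, plus strand: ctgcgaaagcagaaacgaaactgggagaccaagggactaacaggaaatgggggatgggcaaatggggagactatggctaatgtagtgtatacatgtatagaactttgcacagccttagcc
Cflar, chr1:58711371-58711490, plus strand: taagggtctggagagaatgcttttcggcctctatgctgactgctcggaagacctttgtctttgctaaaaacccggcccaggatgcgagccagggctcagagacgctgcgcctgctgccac

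Each library came as TPM, a length-corrected share of its transcripts that sums to 1000000, so read depth is unknown and no counting interval can be given. The macrophage label was checked against markers: Lyz2 lay between 10160.5 and 17557 TPM and Adgre1 (F4/80) between 189 and 307 TPM, while the large peritoneal macrophage genes Gata6 (0.862 to 2.11 TPM) and Timd4 (0.427 to 3.37 TPM) were low. The 8 macrophage markers summed to 21731 and 19026 TPM in Saline and to 13780 and 13600 TPM in LPS+IFNb. Against Saline, 0 of the 8 were called higher and 3 lower with LPS. With IFNb, 1 was higher and 3 lower, and with LPS+IFNb 1 was higher and 4 lower. Of all genes, 41.3%, 38.6% and 54.1% were called lower in these comparisons. Summed markers of T and NK cells (5.16 to 20.7 TPM over 7 genes) and dendritic cells (1.86 to 5.81 TPM over 4 genes) were low in every library. Summed B cell markers lay between 31.2 and 61.2 TPM and mast cell markers between 42.3 and 70.5 TPM, with 6 genes each. The 7 neutrophil markers summed to 142.0 to 286 TPM. Most of this came from Retnlg (27.3 to 128 TPM), S100a8 (36.7 to 115 TPM) and Mmp8 (36.6 to 73.5 TPM), while Ly6g lay between 0 and 0.746 TPM. Of 5 neutrophil markers tested, 1 was higher and 0 lower with LPS, and 0 higher and 1 lower with IFNb. The part of neutrophils in the results below was not tested. The 4 monocyte markers summed to 112 and 138 TPM in Saline, 90.8 and 131 TPM in LPS, 340.5 and 342 TPM in IFNb, and 229 and 210.1 TPM in LPS+IFNb, and 2 of these 4 genes were higher in IFNb than in Saline. They moved with the IFNb results below, and their part in them was not tested. In bulk RNA, fewer cells of a type and less RNA per cell cannot be told apart. The 2 Saline libraries differed in how many transcripts were above 0, 48482 in the first and 53928 in the second, against 46998 to 50489 in the other groups.

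Changes are differences of log2(TPM + 1) ± standard error, which understate the change of low genes, tested with limma over all 13009 genes with Benjamini-Hochberg adjustment and called at an adjusted p under 0.05. As deposited, the median gene shifted against Saline by -0.38 with LPS, -0.37 with IFNb and -0.62 with LPS+IFNb on that scale, so most calls against Saline were falls. With LPS, 3 members rose, against 12.8% of all genes, and 1 fell, against 41.3%. With IFNb, 5 rose, against 13%, and none fell, against 38.6%. LPS+IFNb against Saline gave 4 rises and 1 fall, against 15.2% and 54.1%; with median-ratio scaling all 6 members were called higher in that comparison, and with upper-quartile scaling 5 were. When libraries were instead rescaled by the median ratio over genes, the split of all genes called higher and lower went from 1664 and 5368 to 2718 and 2254 for LPS, from 1697 and 5020 to 2429 and 1938 for IFNb, and from 1980 and 7042 to 3567 and 3274 for LPS+IFNb.

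**Figure D1:**
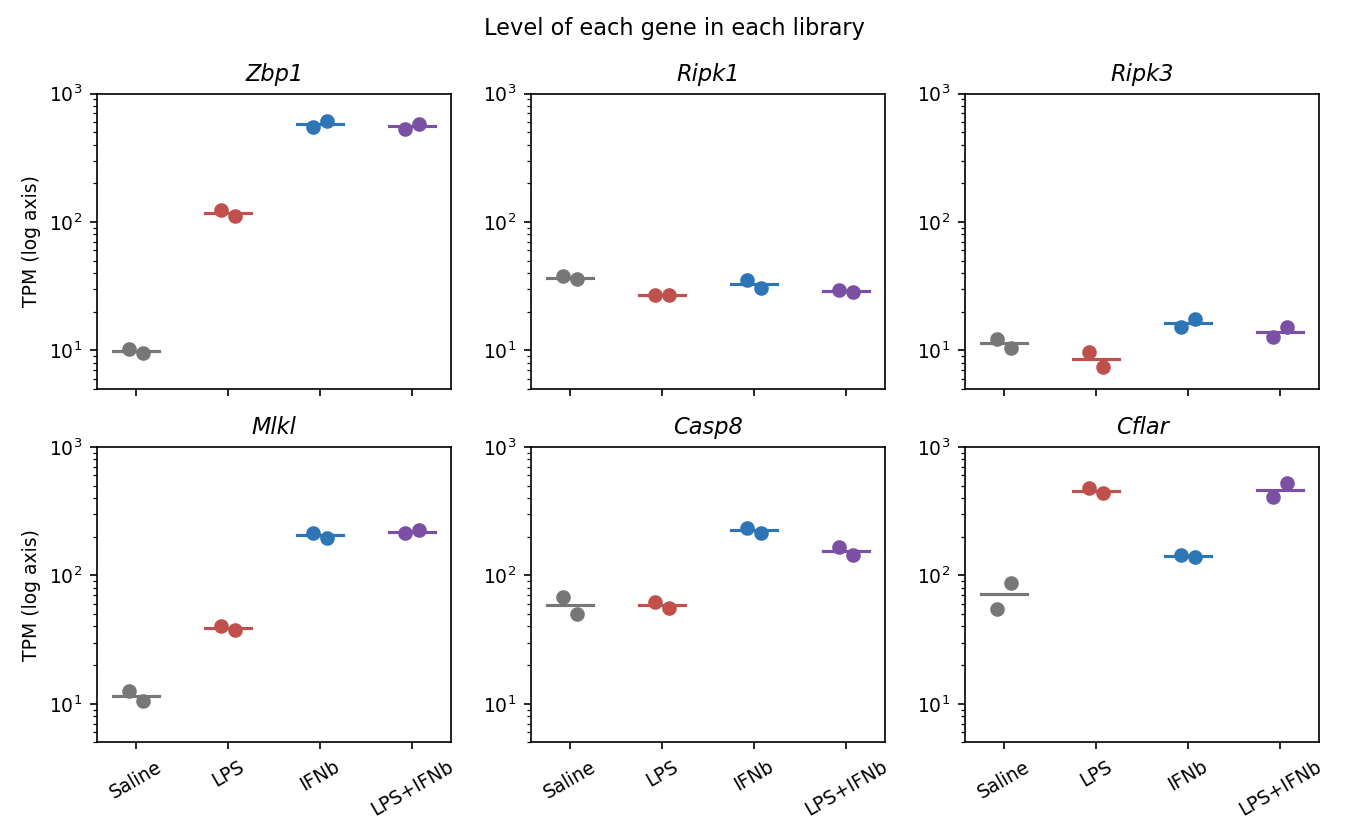
TPM of each of the 6 genes in each of the 8 libraries on a log axis, with points for libraries and a line at the mean of each group. Zbp1, Mlkl and Casp8 were highest in the 2 groups that received IFNb, Cflar in the 2 groups that received LPS, while Ripk1 stayed between 26.9 and 37.8 TPM and Ripk3 between 7.35 and 17.6 TPM.

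Zbp1 (chr2:173206612-173218923, minus strand), the Z-nucleic acid sensor, showed the widest range of the 6. Its level was 10.2 and 9.59 TPM in Saline, 123 and 111 TPM in LPS, 549.8 and 613 TPM in IFNb, and 531 and 581 TPM in LPS+IFNb. The order was Saline, then LPS, then both groups that received IFNb, which overlapped each other and no other group. Against Saline it rose by 3.44 ± 0.10 with LPS (adjusted p = 2.09e-06; 11.8-fold in mean TPM) and by 5.74 ± 0.10 with IFNb (adjusted p = 3.08e-07; 58.7-fold). LPS+IFNb exceeded LPS by 2.24 ± 0.10 (adjusted p = 6.50e-05) and differed from IFNb by -0.06 ± 0.10 (adjusted p = 0.634). Among the genes tested, Zbp1 moved from the 40.1 to 45.04 percentile of level in Saline to the 97.45 to 97.83 percentile in the groups that received IFNb.

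The annotated Zbp1 transcripts did not rise in equal proportion. Zbp1-201 encodes the full 411-codon protein and Zbp1-202 a 187-codon form from 4 in place of 8 exons, while Zbp1-203 is a retained-intron RNA with no coding frame. Zbp1-201 held 32.7% and 38.2% of Zbp1 TPM in Saline, 26.3% and 29.0% in LPS, 51.5% and 52.1% in IFNb, and 47.6% and 48.3% in LPS+IFNb. The longer form was therefore the smaller share in Saline and LPS and about equal to or above the shorter one once IFNb had been given. Zbp1-203 held 22.0% and 19.6% in LPS but 2.01% and 4.84% in Saline, 8.98% and 8.42% in IFNb, and 5.67% and 6.03% in LPS+IFNb. LPS raised Zbp1-203 by 4.25 ± 0.17 (adjusted p = 4.66e-05, limma over 34087 transcripts) and Zbp1-201 by 2.89 ± 0.11 (adjusted p = 3.17e-05), where 7.86% of all transcripts were called higher. The difference between transcripts was not itself tested. In Saline, Zbp1-203 was near the floor (0.205 and 0.465 TPM), and its change with LPS lay between 4.10 and 5.88 over settings. From LPS to LPS+IFNb, Zbp1-201 rose by 3.0 ± 0.11 (adjusted p = 0.000227), with 4.40% of transcripts called higher, and Zbp1-203 differed by 0.40 ± 0.17 (adjusted p = 0.215).

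Ripk1 (chr13:34002363-34037147, plus strand), the kinase and scaffold of the TNF receptor complex, varied over the narrowest range of the 6 as a whole gene. It stood at 37.8 and 35.9 TPM in Saline, 27.0 and 26.9 TPM in LPS, 35.0 and 30.4 TPM in IFNb, and 29.5 and 28.6 TPM in LPS+IFNb. Both LPS and both LPS+IFNb libraries lay below both Saline libraries, and IFNb lay between, also below Saline; from lowest to highest no neighbouring pair of groups differed at the threshold. LPS gave a fall of 0.44 (-0.44 ± 0.10, adjusted p = 0.0103) and LPS+IFNb one of 0.33 (-0.33 ± 0.10, adjusted p = 0.0219), while IFNb gave -0.17 ± 0.10 (adjusted p = 0.192). The median gene shifted by -0.38 and -0.62 in the same comparisons. With median-ratio scaling the values were 0.012 (adjusted p = 0.949) and 0.38 (adjusted p = 0.0302), so the direction of the LPS+IFNb call turned. With upper-quartile scaling they were -0.25 (adjusted p = 0.120) and -0.016 (adjusted p = 0.915).

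Below the gene total, the Ripk1 transcripts with the same coding exons moved apart. Ripk1-201 (3266 bases) begins at 34002363, and Ripk1-203 (6472 bases) begins 511 bases further on, at the start with the GAS matches shown above, and has a last exon longer by 3470 bases. Ripk1-203 stood at 18.7 and 16.9 TPM in Saline, 6.32 and 6.59 TPM in LPS, 7.20 and 7.51 TPM in IFNb, and 4.82 and 3.81 TPM in LPS+IFNb. Every treated library was well below both Saline libraries. Ripk1-201 stood at 18.8 and 18.3 TPM in Saline, 20.2 and 17.2 TPM in LPS, 27.2 and 22.6 TPM in IFNb, and 24.4 and 24.2 TPM in LPS+IFNb. The share of Ripk1 TPM in the longer transcript thus went from 49.4% and 47.2% in Saline to 23.4% and 24.5% in LPS, 20.6% and 24.7% in IFNb, and 16.3% and 13.3% in LPS+IFNb, and a share within 1 gene does not depend on library scaling. Ripk1-203 fell by 1.33 with LPS (-1.33 ± 0.16, adjusted p = 0.00314), by 1.17 with IFNb (-1.17 ± 0.16, adjusted p = 0.00532) and by 1.83 with LPS+IFNb (-1.83 ± 0.16, adjusted p = 0.000555), against 15.9%, 13.6% and 28.8% of transcripts called lower; the calls held with each library left out and with both scalings, and the last value was -1.18 with median-ratio scaling (adjusted p = 0.00505). Ripk1-201 did not pass as deposited (0.00 ± 0.14, 0.40 ± 0.14 and 0.37 ± 0.14; adjusted p = 0.994, 0.0921 and 0.0785) and was higher under median-ratio scaling with IFNb (0.77, adjusted p = 0.0207) and with LPS+IFNb (1.07, adjusted p = 0.00338).

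**Figure D2:**
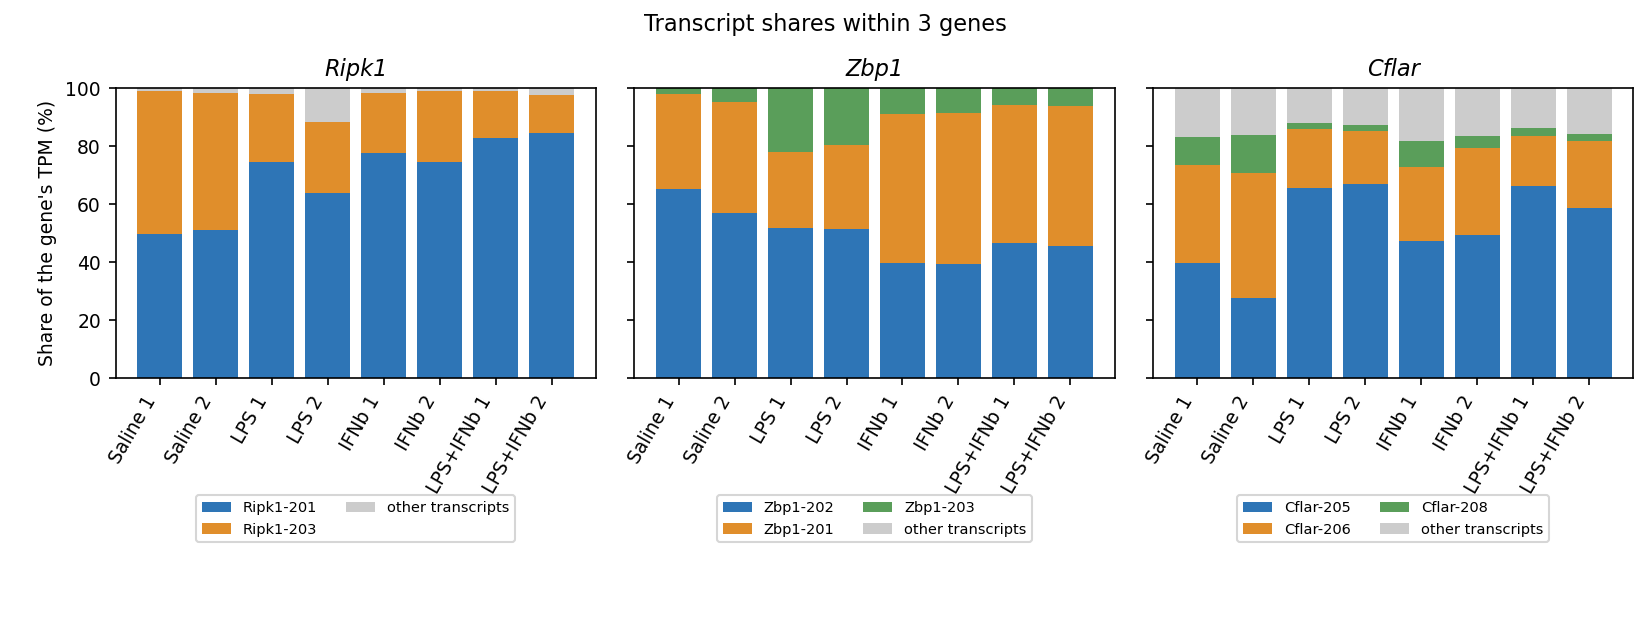
Share of gene TPM, in percent, held by each annotated transcript with a mean share of at least 5% (stacked bars; grey, all others) for Ripk1, Zbp1 and Cflar in the 8 libraries. The share of Ripk1-203 was 47.2% or more in Saline and 24.7% or less in every treated library.

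The deposited values split the reads of near-identical transcripts by an estimate, and the bases that separate these Ripk1 transcripts are noncoding. First exons of the antisense gene Serpinb6a overlap the first exon of Ripk1-201, and strand use in the authors' assignment is not given in the sources used here. The part of either in the Ripk1 shares was not tested. Library LPS 2 also placed 9.12% of Ripk1 TPM in a further coding transcript, Ripk1-204, which held 0.0527% or less in the other libraries.

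Ripk3 (chr14:55784995-55788865, minus strand), the kinase that activates MLKL, was the lowest of the 6 genes in the groups that received an agent. It stood at 12.3 and 10.3 TPM in Saline, 9.62 and 7.35 TPM in LPS, 15.2 and 17.6 TPM in IFNb, and 12.7 and 15.2 TPM in LPS+IFNb. LPS libraries were the lowest and IFNb libraries the highest, with neighbours in the order LPS, Saline, LPS+IFNb and IFNb not differing at the threshold as deposited. LPS+IFNb against Saline gave 0.28 ± 0.17 (adjusted p = 0.191) and was called higher with median-ratio scaling (0.96, adjusted p = 0.00484), upper-quartile scaling (0.58, adjusted p = 0.0224) and the crossed replicate block (adjusted p = 0.0487). Groups further apart in that order did differ: LPS was below IFNb by 0.88 (-0.88 ± 0.17, adjusted p = 0.00755), and IFNb was above Saline by 0.50 ± 0.17 (adjusted p = 0.0476). The call of LPS against IFNb was lost without IFNb 2 (-0.78) and with a minimum log2 change of 1. LPS against Saline gave -0.38 ± 0.17 (adjusted p = 0.105) and was called lower only with the crossed replicate block (adjusted p = 0.0228). Over all settings this value lay between -0.55 and 0.039, and the median gene shifted by -0.38 in the same comparison. LPS+IFNb exceeded LPS by 0.66 ± 0.17 (adjusted p = 0.0268). The rise with IFNb is marginal, being lost in 13 alternatives. Among these were the fits with either Saline, IFNb or LPS+IFNb library left out (0.39 to 0.61) and a pseudocount of 0.1 (adjusted p = 0.0514). It kept its call with both scalings, and lay between 0.39 and 0.86 over all settings. The rise from LPS to LPS+IFNb was lost in 7, among them the fits without LPS 2 (0.49) or either LPS+IFNb library (0.78 and 0.54).

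Mlkl (chr8:111311797-111338177, minus strand), the pseudokinase that carries out membrane rupture, followed the same order as Zbp1. Its level was 12.6 and 10.6 TPM in Saline, 40.3 and 37.3 TPM in LPS, 212 and 197 TPM in IFNb, and 213 and 225 TPM in LPS+IFNb. Saline and LPS were separate from each other and from the groups that received IFNb, and LPS+IFNb lay just above IFNb without a called difference (0.10 ± 0.11, adjusted p = 0.504). The rise over Saline was 1.66 ± 0.11 with LPS (adjusted p = 7.07e-05; 3.35-fold), 4.03 ± 0.11 with IFNb (adjusted p = 1.17e-06; 17.6-fold) and 4.13 ± 0.11 with LPS+IFNb (adjusted p = 8.16e-07; 18.9-fold). LPS+IFNb exceeded LPS by 2.47 ± 0.11 (adjusted p = 6.42e-05). The main coding transcript, Mlkl-202 (464 codons), held 45.5% to 73.2% of Mlkl TPM in the 8 libraries. Both LPS libraries (45.5% and 56.4%) lay below the other 6 (62.2% to 73.2%), a difference in share that was not tested.

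Casp8 (chr1:58795374-58847503, plus strand), the initiator protease that blocks necroptosis, responded to IFNb and showed no called response to LPS. It stood at 68.2 and 49.8 TPM in Saline, 62.5 and 56.2 TPM in LPS, 234 and 215 TPM in IFNb, and 167 and 145 TPM in LPS+IFNb. The LPS values fell inside the Saline range, and the groups that received IFNb lay above both. IFNb raised Casp8 by 1.93 ± 0.16 (adjusted p = 0.000204; 3.80-fold) and LPS+IFNb by 1.40 ± 0.16 (adjusted p = 0.000343; 2.64-fold) over Saline, while LPS gave 0.02 ± 0.16 (adjusted p = 0.916). LPS+IFNb exceeded LPS by 1.38 ± 0.16 (adjusted p = 0.00153) and was below IFNb by 0.53 (-0.53 ± 0.16, adjusted p = 0.0414). That last difference was lost in 12 alternatives, without any 1 of the LPS, IFNb or LPS+IFNb libraries (adjusted p = 0.0605 to 0.173) and with median-ratio scaling (-0.18, adjusted p = 0.546). The 4 main Casp8 transcripts all encode the protease, with 480 or 500 codons, and none of the 4 was called different between LPS and Saline.

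Cflar (chr1:58711508-58758884, plus strand), the caspase-8 partner cFLIP, had the reverse pattern, with LPS as the stronger agent. It stood at 55.2 and 87.1 TPM in Saline, 479 and 435 TPM in LPS, 144 and 138 TPM in IFNb, and 408 and 521 TPM in LPS+IFNb. Saline was lowest, IFNb next, and LPS and LPS+IFNb overlapped at the top (difference 0.01 ± 0.22, adjusted p = 0.971). The rise over Saline was 2.70 ± 0.22 with LPS (adjusted p = 0.000179; 6.42-fold), 1.01 ± 0.22 with IFNb (adjusted p = 0.00887; 1.98-fold) and 2.71 ± 0.22 with LPS+IFNb (adjusted p = 8.56e-05; 6.53-fold). LPS+IFNb exceeded IFNb by 1.70 ± 0.22 (adjusted p = 0.00216), and LPS exceeded IFNb by 1.69 ± 0.22 (adjusted p = 0.00121).

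The spread of Cflar in Saline lay mainly in noncoding transcripts. Cflar-205, which encodes the 481-codon long form, stood at 22.0 and 24.0 TPM in Saline, 314 and 291 TPM in LPS, 67.8 and 68.3 TPM in IFNb, and 269 and 306 TPM in LPS+IFNb. Its pairs of libraries were close, and the groups kept the order of the whole gene. The noncoding Cflar-206 stood at 18.7 and 37.7 TPM in the Saline libraries, and coding transcripts made up 44.6% and 30.7% of Cflar in them, against 71.1% and 73.4% in LPS, 52.2% and 52.5% in IFNb, and 72.1% and 63.9% in LPS+IFNb. Cflar-205 rose by 3.66 ± 0.10 with LPS (adjusted p = 1.21e-05) and by 1.53 ± 0.10 with IFNb (adjusted p = 0.000267), where 7.73% of transcripts were called higher with IFNb. A shorter coding transcript of 215 codons, Cflar-204, stood at 2.67 and 2.68 TPM in Saline, 25.7 and 26.3 TPM in LPS, 7.32 and 4.37 TPM in IFNb, and 24.4 and 25.5 TPM in LPS+IFNb. It held 3.08% to 6.06% of Cflar TPM and is named although its mean share (4.80%) is under the 5% set for naming transcripts.

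**Figure D3:**
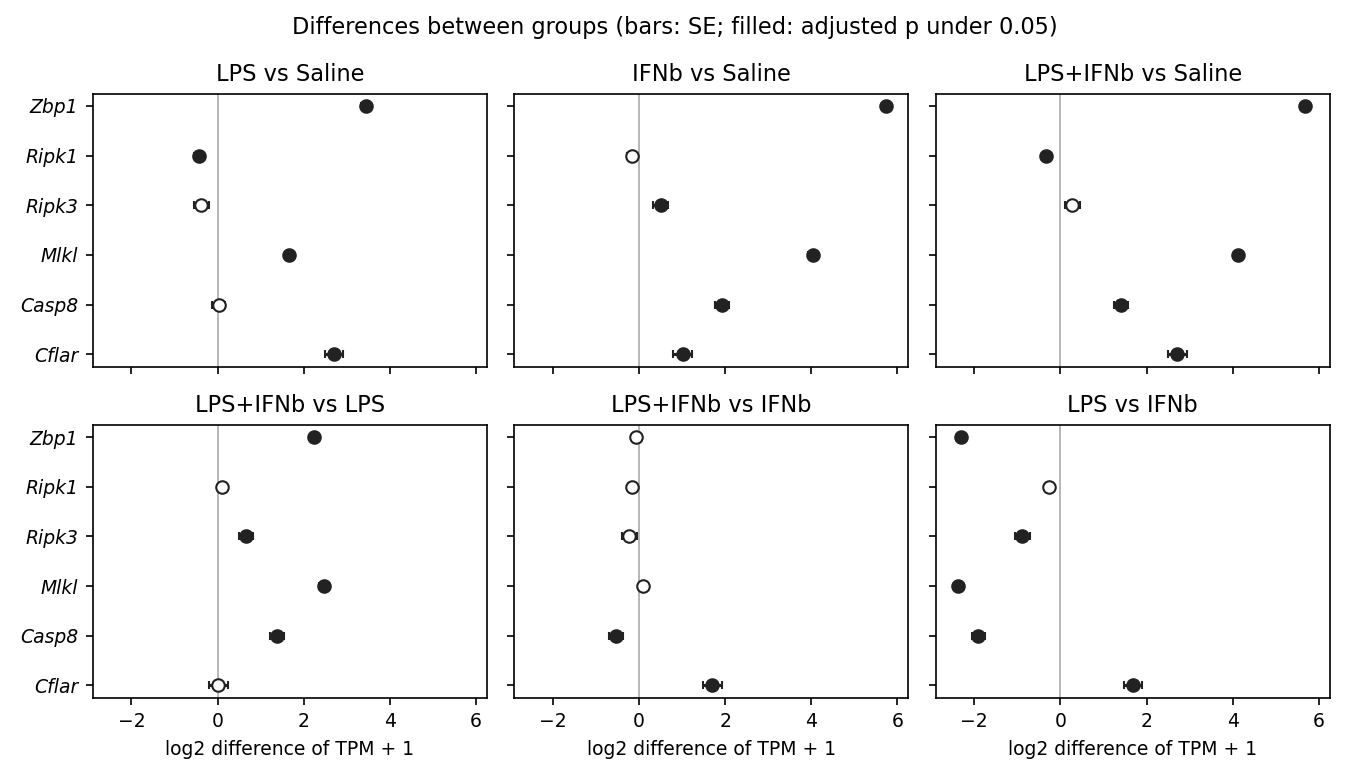
Change of each gene in log2(TPM + 1) with its standard error for the 6 comparisons between groups, from limma; filled points passed an adjusted p under 0.05. The change of Zbp1 was 3.44 with LPS and 5.74 with IFNb, and that of Cflar was 2.70 with LPS and 1.01 with IFNb.

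Comparisons between the stimulated groups set the genes apart by agent. LPS against IFNb gave 1 higher member (Cflar), against 16.6% of all genes, and 4 lower, against 22.1%. The 4 were Zbp1 (-2.30 ± 0.10, adjusted p = 1.29e-05), Mlkl (-2.37 ± 0.11, adjusted p = 1.61e-05), Casp8 (-1.90 ± 0.16, adjusted p = 0.000189) and Ripk3. LPS+IFNb against LPS gave 4 higher members, the same 4 genes by name, against 10.8%, and none lower, against 24.1%; these comparisons share the LPS libraries. LPS+IFNb against IFNb gave 1 higher (Cflar), against 8.76%, and 1 lower (Casp8), against 30.5%.

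The interaction asks whether the difference between LPS+IFNb and LPS equals that between IFNb and Saline. It was below 0 for 2 members, against 4.45% of all genes, and above 0 for none, against 3.51%. Zbp1 gave -3.50 ± 0.14 (adjusted p = 3.80e-05) and Mlkl -1.57 ± 0.15 (adjusted p = 0.00170): the sum of the separate LPS and IFNb changes exceeded the change with both on the log scale. Casp8 gave -0.55 ± 0.23 (adjusted p = 0.211), Ripk1 0.28 ± 0.14 (adjusted p = 0.302) and Ripk3 0.16 ± 0.24 (adjusted p = 0.770). Cflar gave -1.0 ± 0.31 (adjusted p = 0.114) for the gene, which became -1.33 (adjusted p = 0.0246) without Saline 2, and -1.60 ± 0.14 (adjusted p = 0.00387) for Cflar-205 alone, with 1.75% of transcripts called lower.

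Ratios of TPM between members within a library do not depend on how that library was scaled, and were described without a test. Cflar to Casp8, the inhibitor-like partner over the protease, was 0.810 and 1.75 in Saline, 7.67 and 7.74 in LPS, 0.615 and 0.644 in IFNb, and 2.44 and 3.61 in LPS+IFNb. LPS libraries were highest, IFNb libraries lowest, and LPS+IFNb stood between LPS and Saline. With coding transcripts alone, the ratio was 0.362 and 0.536 in Saline, 5.46 and 5.68 in LPS, 0.321 and 0.338 in IFNb, and 1.76 and 2.31 in LPS+IFNb, which is the same order. Mlkl to Ripk3, the executioner over its kinase, was 1.03 and 1.02 in Saline, 4.19 and 5.08 in LPS, 14.0 and 11.2 in IFNb, and 16.8 and 14.8 in LPS+IFNb. Zbp1 to Ripk3, the sensor over the same kinase, was 0.835 and 0.927 in Saline, 12.8 and 15.1 in LPS, 36.2 and 34.8 in IFNb, and 41.8 and 38.2 in LPS+IFNb. In both ratios the groups followed the order Saline, LPS, IFNb and LPS+IFNb without overlap. Ripk3 to Casp8 was 0.180 and 0.208 in Saline, 0.154 and 0.131 in LPS, 0.0650 and 0.0820 in IFNb, and 0.0759 and 0.105 in LPS+IFNb. Ripk1 to Ripk3 was 3.08 and 3.47 in Saline, 2.81 and 3.66 in LPS, 2.30 and 1.72 in IFNb, and 2.33 and 1.88 in LPS+IFNb.

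**Figure D4:**
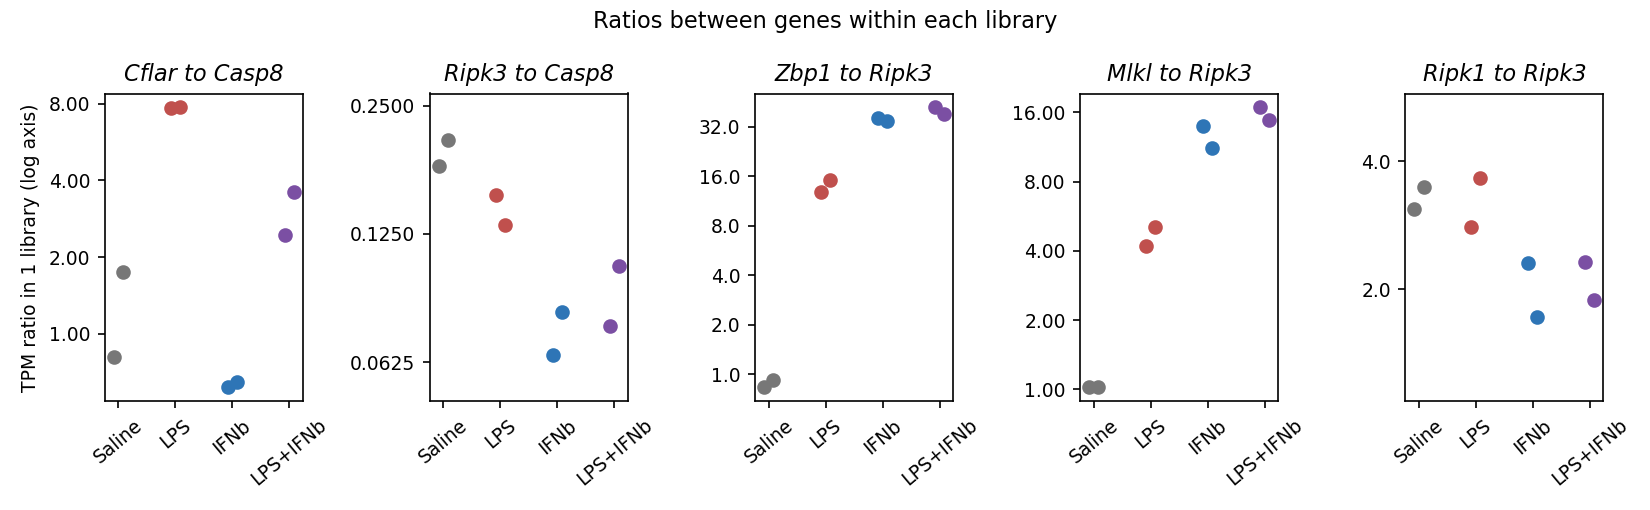
Ratio of TPM between 2 members in each library on a log axis, by group. Cflar to Casp8 was 7.67 and 7.74 in LPS and below 1 in both IFNb libraries, and Mlkl to Ripk3 rose from about 1 in Saline to 11.2 or more in the groups that received IFNb.

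The rest of the pathway was read from lists grouped by role. Of 11 death ligands and receptors tested, 6 rose and 2 fell with LPS (median 1.27, against -0.38 for all genes; 7 and 1 with median-ratio scaling), and 5 rose and 2 fell with IFNb (median 0.12, against -0.37; 5 and 1 with median-ratio scaling). Tnf, the ligand of the TNF receptor complex that holds RIPK1, rose by 8.04 ± 0.10 with LPS (adjusted p = 2.04e-07) and by 1.92 ± 0.10 with IFNb (adjusted p = 2.78e-05). Tnfsf10, which encodes TRAIL, and Tlr3, a double-stranded RNA receptor that reaches RIPK3 through TRIF, had larger values with IFNb (6.65 ± 0.15 and 5.01 ± 0.11) than with LPS (1.99 ± 0.15 and 1.27 ± 0.11), all 4 called. Fas, a death receptor, rose with LPS (2.00 ± 0.13, adjusted p = 7.26e-05) and gave -0.07 ± 0.13 with IFNb (adjusted p = 0.670; 0.28 with median-ratio scaling).

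Of 20 adaptors, ubiquitin enzymes and kinases of the TNF receptor complex, 10 rose and 3 fell with LPS (median 0.38), and 7 rose and 4 fell with IFNb (median -0.04; 11 and 0 with median-ratio scaling). Mapkapk2 (MK2), which phosphorylates RIPK1, rose by 2.89 ± 0.09 with LPS (adjusted p = 3.09e-06). Birc3 (cIAP2), a ubiquitin ligase for RIPK1, rose by 1.94 ± 0.13 with LPS (adjusted p = 7.16e-05). Fadd, the adaptor that brings caspase-8 to death receptors, fell by 0.95 with LPS (-0.95 ± 0.15, adjusted p = 0.00248) and gave -0.17 ± 0.15 with IFNb (adjusted p = 0.375). Of 14 deubiquitinases and other brakes on death, 8 rose and 4 fell with LPS (median 0.84; 8 and 1 with median-ratio scaling), and 1 rose and 4 fell with IFNb (median -0.25; 4 and 2 with median-ratio scaling). Tnfaip3 (A20), a brake on RIPK3 ubiquitination, rose by 4.89 ± 0.13 with LPS (adjusted p = 1.50e-06) and by 0.39 ± 0.13 with IFNb (adjusted p = 0.0390). Otulin, which removes linear ubiquitin, fell by 0.91 with LPS (-0.91 ± 0.10, adjusted p = 0.000708) and by 1.16 with IFNb (-1.16 ± 0.10, adjusted p = 0.000283). The anti-apoptotic Bcl2a1a and Bcl2a1d rose by 4.98 and 4.14 with LPS, but these are near-identical copies whose reads could be divided between them.

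Of 15 genes of caspase-8 substrates and apoptosis execution, 5 rose and 8 fell with LPS (median -0.34; 6 and 3 with median-ratio scaling), and 9 rose and 3 fell with IFNb (median 0.86; 10 and 1 with median-ratio scaling). From LPS to LPS+IFNb, 9 rose and 2 fell (median 0.80, against -0.22 for all genes). Bid, which links caspase-8 to mitochondria, rose by 1.78 with IFNb and fell by 0.57 with LPS (-0.57, adjusted p = 0.0370; -0.13 with adjusted p = 0.603 under median-ratio scaling). Casp9, the initiator of the mitochondrial route, fell by 2.77 with LPS (-2.77 ± 0.16, adjusted p = 4.61e-05). With median-ratio scaling the LPS values of Fadd and Otulin were -0.56 and -0.45, still called lower (adjusted p = 0.0218 and 0.0250), and that of Tnfaip3 with IFNb was 0.76 (adjusted p = 0.00175).

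Of 13 genes of interferon signalling and Z-nucleic acid control, 11 rose with LPS (median 1.42) and 9 with IFNb (median 2.90), and none fell. The interaction was below 0 for 8 of the 13, Stat2 (-4.11 ± 0.12, adjusted p = 1.31e-05) and Trex1 (-3.81 ± 0.11, adjusted p = 1.33e-05) among them, as it was for Zbp1. Adar, whose ADAR1 protein restrains ZBP1, stood at 18.9 and 30.1 TPM in Saline, 99.4 and 105 TPM in LPS, 184 and 185 TPM in IFNb, and 140.2 and 150.1 TPM in LPS+IFNb. Adar rose with both agents (2.06 ± 0.19 and 2.90 ± 0.19; adjusted p = 0.000326 and 7.33e-05), by less than Zbp1 in each case in these values. Of 19 MLKL partners and membrane repair genes, 2 rose and 6 fell with LPS (median -0.16; 6 and 1 with median-ratio scaling), and 3 rose and 8 fell with IFNb (median -0.33; 8 and 1 with median-ratio scaling), so the list had no direction that held across scalings. Chmp4b, an ESCRT-III subunit of the machinery that sheds membrane damaged by MLKL, rose by 1.62 ± 0.09 with IFNb (adjusted p = 3.71e-05). Ipmk, an inositol phosphate kinase whose products MLKL needs, fell by 1.08 with LPS (-1.08 ± 0.11, adjusted p = 0.000392) and by 0.93 with IFNb (-0.93 ± 0.11, adjusted p = 0.000769), or -0.64 and -0.56 with median-ratio scaling, both still called.

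**Figure D5:**
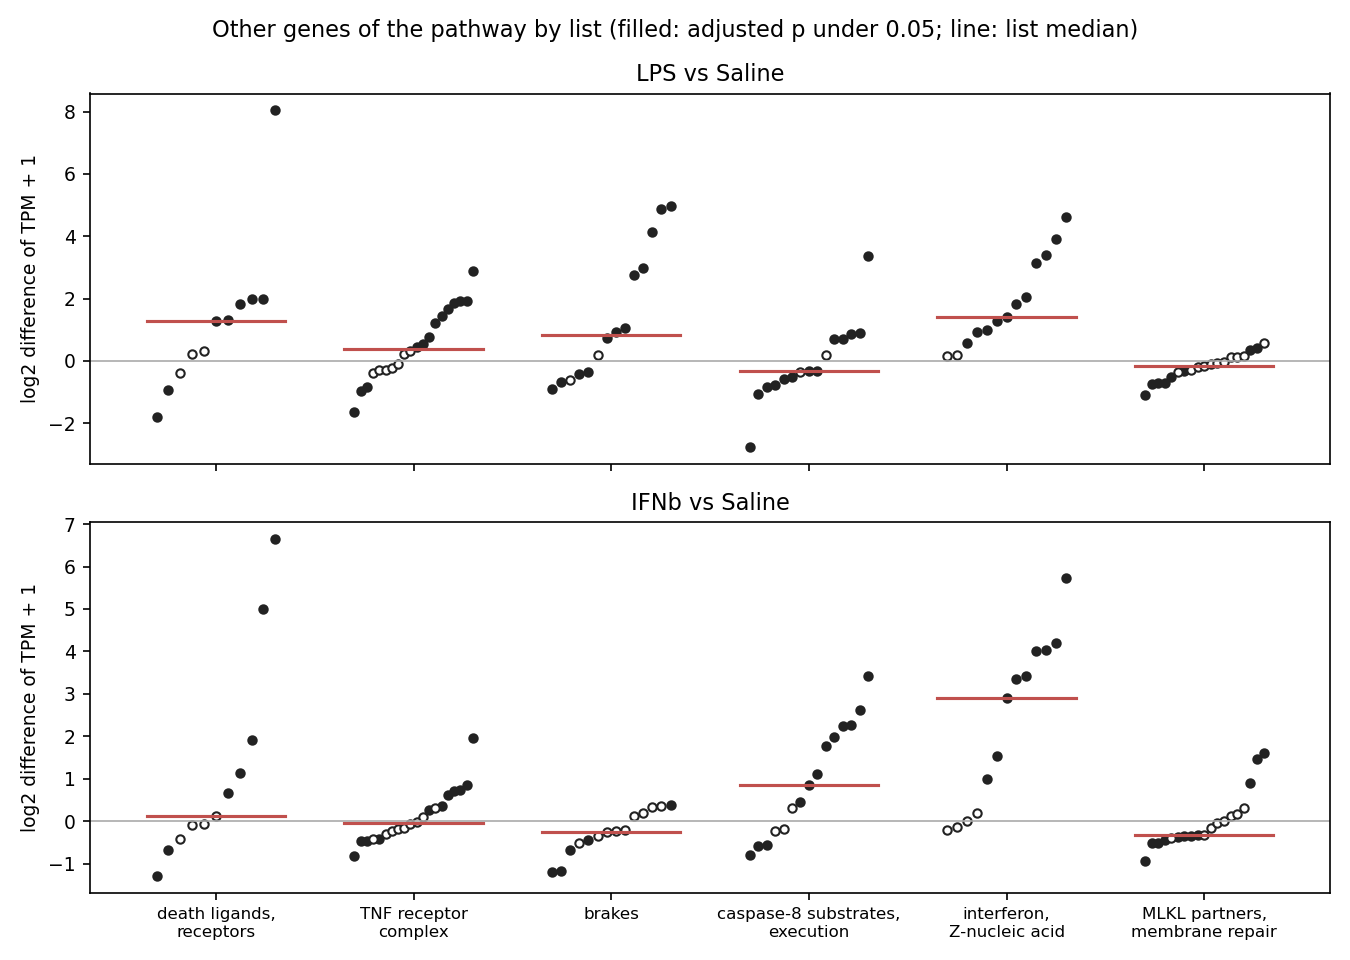
Change in log2(TPM + 1) of each tested gene of 6 pathway lists with LPS (top) and with IFNb (bottom) against Saline; filled points passed an adjusted p under 0.05 in limma and lines mark list medians. In the interferon and Z-nucleic acid list 11 of 13 genes were higher with LPS and 9 with IFNb.

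Genes whose profiles over the 8 libraries lay closest to each member were found by the root mean square difference of centred log2(TPM + 1) values, as a description. For Zbp1 these were Ifi209 (0.226), Gbp7 (0.231), Irf7 (0.233) and Phf11d (0.242). For Mlkl they were Nmi (0.218), Pnp (0.243), Oas1a (0.252) and Ube2l6 (0.285), and for Casp8 Dek (0.137), Isoc1 (0.162), Fyn (0.165) and H2-T23 (0.166). For Cflar they were Ralgds (0.175), Ets2 (0.203), Pim1 (0.221) and Plagl2 (0.224). Ripk1 and Ripk3 had closer neighbours, led by Yipf5 (0.0745) and C1qc (0.0610). The measure is not scaled for the range of a gene, so genes that vary little, such as Ripk1 and Ripk3, tend to get smaller values. Zbp1 and Mlkl differed from each other by 0.733 and Ripk1 and Ripk3 by 0.345, so no member was among the 4 genes nearest another.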

How the data were processed

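The authors deposited 1 table of TPM for 88198 Ensembl transcripts per library; per the submitters' processing notes these came from kallisto and the mm10 build, and its version, options and strand setting are not stated there. Groups, replicate numbers and times came from the labels. Of the transcripts, 86119 matched GENCODE M21 on GRCm38; the 2079 unmatched held 1.01% to 1.95% of TPM and were left out. TPM was summed per gene. A gene was tested if 2 or more libraries reached 1 TPM, as log2(TPM + 1) in limma 3.58.1 (R 4.3.3), with an intensity trend, 1 mean per group over all 8 libraries, 4 residual and 2.54 prior degrees of freedom, two-sided p-values and Benjamini-Hochberg adjustment per comparison (7 comparisons: all pairs of groups and the interaction). A transcript-level fit was added after seeing the data. Named genes were the 6 members, list genes with the smallest adjusted p (at most 3 per direction) and a set of focal genes (Adar, Fadd, Tradd, Tlr3, Ticam1, Tnfrsf1a, Fas, Bid, Irf1 and Irf9 among them; some items the rule names are left out here), the 4 nearest profiles among genes averaging 3 or more in log2(TPM + 1), and transcripts with a mean share of at least 5%. The members and lists were chosen with earlier results of these data known. Alternatives were 2 scalings, protein-coding genes only, a pseudocount of 0.1, no filter or a minimum of 5 TPM, fits to the compared groups only, an adjusted p under 0.01, a minimum log2 change of 1, a replicate block and each library left out. Figures were drawn with matplotlib 3.10.9.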

Additional observations from a re-analysis of the deposited data

Results flagged for a closer look

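A difference between LPS+IFNb and LPS that was unlike the difference between IFNb and Saline, by the interaction term of limma, marked 2 of the 6 genes. Zbp1 had an interaction of -3.50 ± 0.14 (adjusted p = 3.80e-05): its 4 LPS and LPS+IFNb libraries differed by 2.24 between groups, and its IFNb and Saline libraries by 5.74. Mlkl had an interaction of -1.57 ± 0.15 (adjusted p = 0.00170), from 2.47 and 4.03. Groups of 2 libraries are too small to test for an outlying library. The LPS+IFNb libraries were also taken 4 h later than the others, and the part of time in these values cannot be told apart from that of the agents.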

How the results depend on the processing

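Of 792 values of single genes under alternative settings, 741 kept their side of the threshold, 44 lost the call and 5 gained one. A further 2 changed sign with a call in at least 1 of the settings compared, and are counted as reversals. Changes of sign between uncalled values count among the 741, as for Zbp1 in LPS+IFNb against IFNb (-0.14 to 0.28 over settings). The reversals were Ripk1 under median-ratio scaling, at 0.012 for LPS against Saline and 0.38 for LPS+IFNb against Saline; that scaling moves the median gene by 0.39 and 0.62. The calls of Zbp1 and Mlkl held in every alternative run except where no value could be had (the interaction in a fit to 2 groups).

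The number of members called lower with LPS, 1 as reported, was 0 with median-ratio scaling, upper-quartile scaling, an adjusted p under 0.01 and a minimum log2 change of 1. The number called lower with LPS+IFNb against Saline, 1 as reported, was 0 with both scalings, a fit to the 2 groups, an adjusted p under 0.01 and a minimum log2 change of 1, and ranged from 0 to 1 with a library left out. The number called lower with LPS+IFNb against IFNb, 1 as reported (Casp8), was 0 with both scalings, no filter, an adjusted p under 0.01 and a minimum log2 change of 1, and ranged from 0 to 1 with a library left out. The cause was not tested. Over all genes, median-ratio scaling changed the calls higher and lower from 1400 and 3129 to 1989 and 1368 (LPS+IFNb against LPS), from 1140 and 3967 to 1788 and 1423 (LPS+IFNb against IFNb), and from 457 and 579 to 269 and 630 (interaction).

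Correlations of same-numbered deviations between groups were 0.141 for Saline with LPS and 0.126 for IFNb with LPS+IFNb. For the other pairs of groups they lay between -0.156 and 0.00527. The main fit used no block, and whether libraries were paired, with the same or crossed numbers, was not tested. With the replicate block, 41 of 42 values kept their call, the exception being Ripk3 with IFNb (0.50, adjusted p = 0.0710), and the interaction gave 263 higher and 465 lower genes. With the block crossed in IFNb and LPS+IFNb, added after seeing the data, the members called lower were 2 with LPS (Ripk1 and Ripk3). In LPS+IFNb against IFNb they were 0, and the interaction gave 498 higher and 643 lower genes.

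Read depth is unknown, so counting error at low TPM, as for Ripk3, is not known. Ratios from coding transcripts only moved the LPS minus Saline difference from 2.70 to 3.66 for Cflar to Casp8 and from 3.98 to 3.70 for Zbp1 to Ripk3, on the log2 scale. A lone library of a group left by omission was assumed to vary like the other groups.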
